A study of Mus musculus with 6 samples.

Results

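The genes described here make, cut, carry and load the peptides that MHC class I molecules show on the cell surface. They were chosen as the rows of the deposited expression table whose gene symbol is one of 10 listed names, all 10 of which were found among its 56691 genes. The members are the coactivator gene Nlrc5, the heavy chain genes H2-K1 and H2-D1, the light chain gene B2m, the transporter genes Tap1 and Tap2, the loading factor gene Tapbp, and the immunoproteasome genes Psmb8, Psmb9 and Psmb10. RNA was measured in 4T1 cells, a line from a mammary carcinoma of a BALB/c mouse, in 3 libraries treated with KIRA6 at 1 µmol/L for 4 h and in 3 libraries given vehicle for 4 h in the same fresh medium. IRE1α is a stress sensor of the endoplasmic reticulum (ER), and KIRA6 occupies its kinase pocket and attenuates its RNase. These libraries cannot tell effects through IRE1α from other effects of KIRA6. Polyadenylated RNA was sequenced with strand-marked libraries. The comparison asks which transcripts of the tumour cells themselves differ after KIRA6, in a study of suppressive myeloid cells and PD-1 blockade.

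Every nucleated cell can show fragments of its own proteins to CD8 T cells. The proteasome cuts proteins into peptides, TAP1 and TAP2 pump the peptides into the ER, and tapasin (Tapbp), with calreticulin and ERp57, holds empty class I molecules until a peptide fits. A class I molecule is a heavy chain paired with β2-microglobulin, the product of B2m. Under interferon the immunoproteasome subunits PSMB9, PSMB10 and PSMB8 take the place of the constitutive catalytic subunits in new proteasomes, and interferon raises transcription of most of the pathway through IRF1 and NLRC5. Tumour cells often keep the pathway low, and it can be raised again by interferon.

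Class I promoters are known for a compact set of control elements: an NF-κB site and an interferon-stimulated response element upstream, and nearer the gene an X and a Y box through which NLRC5 acts with RFX, CREB/ATF and NF-Y proteins. Stretches from the RefSeq promoter table (build GRCm38.p6) are shown for 3 members because the heavy chain genes and B2m carry these elements together. Capitals mark, from left to right, the NF-κB and IRF matches (in B2m the IRF match comes first), then TGACG of the X box and ATTGG of the Y box. The H2-K1 stretch is chr17:34000354-34000466 on the minus strand, that of H2-D1 is chr17:35262915-35263027 on the plus strand, and that of B2m is chr2:122147540-122147643 on the plus strand. All 3 lie upstream of an annotated RefSeq transcript start, for H2-K1 the more upstream of its annotated starts.
H2-K1: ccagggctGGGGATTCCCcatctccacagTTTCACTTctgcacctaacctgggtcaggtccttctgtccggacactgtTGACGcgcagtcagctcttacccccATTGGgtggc
H2-D1: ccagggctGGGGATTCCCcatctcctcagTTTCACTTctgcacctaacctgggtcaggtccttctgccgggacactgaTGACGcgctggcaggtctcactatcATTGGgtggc
B2m: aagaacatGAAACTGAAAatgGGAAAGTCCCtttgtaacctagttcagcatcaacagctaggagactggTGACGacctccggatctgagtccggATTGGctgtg

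The H2-K1 and H2-D1 stretches were identical at 102 of 113 bases, and the NF-κB and IRF matches were the same letters in both. In all 3 genes 20 bases separated TGACG from ATTGG. That spaced pair, searched for after it had been seen, was present in 30 of 32851 windows of 250 bases before a start (0.0913%). The windows cover 8 of the 10 members with 9 starts, and Nlrc5 and Tap2 were not matched. Of the motifs searched on both strands, the NF-κB motif (GGG, any 2 bases, TT, any base, CC) was in the windows of 3 member genes and in 4.11% of all windows. AANTGAAA (IRF) was in 3 member genes and in 5.7% of all windows, and the longer response element (GAAA, any 2 bases, GAAA) was in B2m and in 2.98% of all windows. In B2m the AANTGAAA match overlaps the response element match. The GAS motif (TTC, any 3 bases, GAA) was in Psmb8 and in 7.02% of all windows. TGACG alone was in 5 member genes and in 17.8% of all windows, and ATTGG alone in 6 and in 33.8%. The letters are those of the C57BL/6J reference and not of the BALB/c genome of 4T1.

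The libraries held an estimated 18213800 to 21353300 fragments assigned to genes with KIRA6 and 16497200 to 18587350 with vehicle. Levels are FPKM, fragments scaled by the deposited exonic length and by library size. Comparisons of levels between genes rest on that length, which may differ from that of the transcripts present. KIRA6 replicate 1 and Vehicle replicate 3 lay apart from the rest of their groups, and the first component of the within-group variation took 81.3% of it. The epithelial markers Epcam, Cdh1, Krt7, Krt8, Krt18 and Krt19 were present, and the basal keratin gene Krt5 was at 0 in all 6 libraries. The 10 epithelial markers summed to 1815 to 1927 FPKM with KIRA6 and 1440 to 1576 FPKM with vehicle. Of 9 tested 4 rose (Krt14, Krt19, Cldn4 and Epcam) and 0 fell, where 15.6% of all tested genes rose and 7.98% fell. Krt14, a basal keratin gene, averaged 162.1 FPKM with KIRA6 and 22.9 FPKM with vehicle (limma adjusted p = 0.000142), and Krt19 averaged 110.5 FPKM with KIRA6 and 22.4 FPKM with vehicle (limma adjusted p = 0.000478). Among 14 leukocyte markers the T cell, macrophage and natural killer genes Cd3e, Cd8a, Adgre1 and Nkg7 were at 0 in all 6 libraries, and Ptprc reached 0.01 FPKM in a single library. Other myeloid markers were detected at low levels. Lyz2 had 0.75, 0.5 and 0.46 FPKM with KIRA6 and 0.08, 0.18 and 0.37 FPKM with vehicle, and was below the filter for testing. Csf1r had 0.03 to 0.09 FPKM over the 6 libraries, and S100a8 reached 0.27 FPKM with KIRA6 and 0.09 FPKM with vehicle. The summed level of the leukocyte markers was 4.06 to 4.63 FPKM with KIRA6 and 1.86 to 3.08 FPKM with vehicle, most of it Cd68, which is also found outside leukocytes. The 4 endothelial markers summed to at most 0.04 FPKM with KIRA6 and 0.06 FPKM with vehicle. The 6 fibroblast markers summed to 1.85 to 3.76 FPKM with KIRA6 and 0.44 to 0.75 FPKM with vehicle, nearly all of it Pdgfra. The part of the epithelial marker, Cd68, Lyz2 and Pdgfra differences in the results was not tested. In bulk RNA a change in the number of cells that use a gene and a change per cell cannot be told apart.

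The class I pathway genes Psmb9, Tap1, Tap2, Psmb8, H2-K1 and H2-D1 rose with KIRA6. By limma on log2(FPKM + 0.5), adjusted over all 11778 tested genes with a threshold of 0.05, 6 of the 10 members were called higher, where 15.6% of all tested genes were. None of the 10 was called lower, where 7.98% of all tested genes were. None was lower at an unadjusted p under 0.05 or called lower by limma-voom either. In either direction 23.6% of tested genes were called, of which 66.2% were higher, against 44% with median-ratio scaling and 48.9% with quantile normalization. The count of members called higher was 3 with median-ratio scaling. It was 5, 1 and 2 with KIRA6 replicate 1, 2 or 3 left out, and 3, 2 and 7 with Vehicle replicate 1, 2 or 3 left out. All 10 members passed the filter of a mean of 0.5 FPKM. The median log2 fold change of the 10 was 0.90, against 0.16 for all tested genes. Of the 10, 9 were above 0, and the same 9 were above that median of all tested genes. In 7 members every KIRA6 library lay above every vehicle library, which held for 27.7% of tested genes, and in Nlrc5 every KIRA6 library lay below, which held for 14.1%. In either direction the groups were apart for 41.8% of tested genes.

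**Figure D1:**
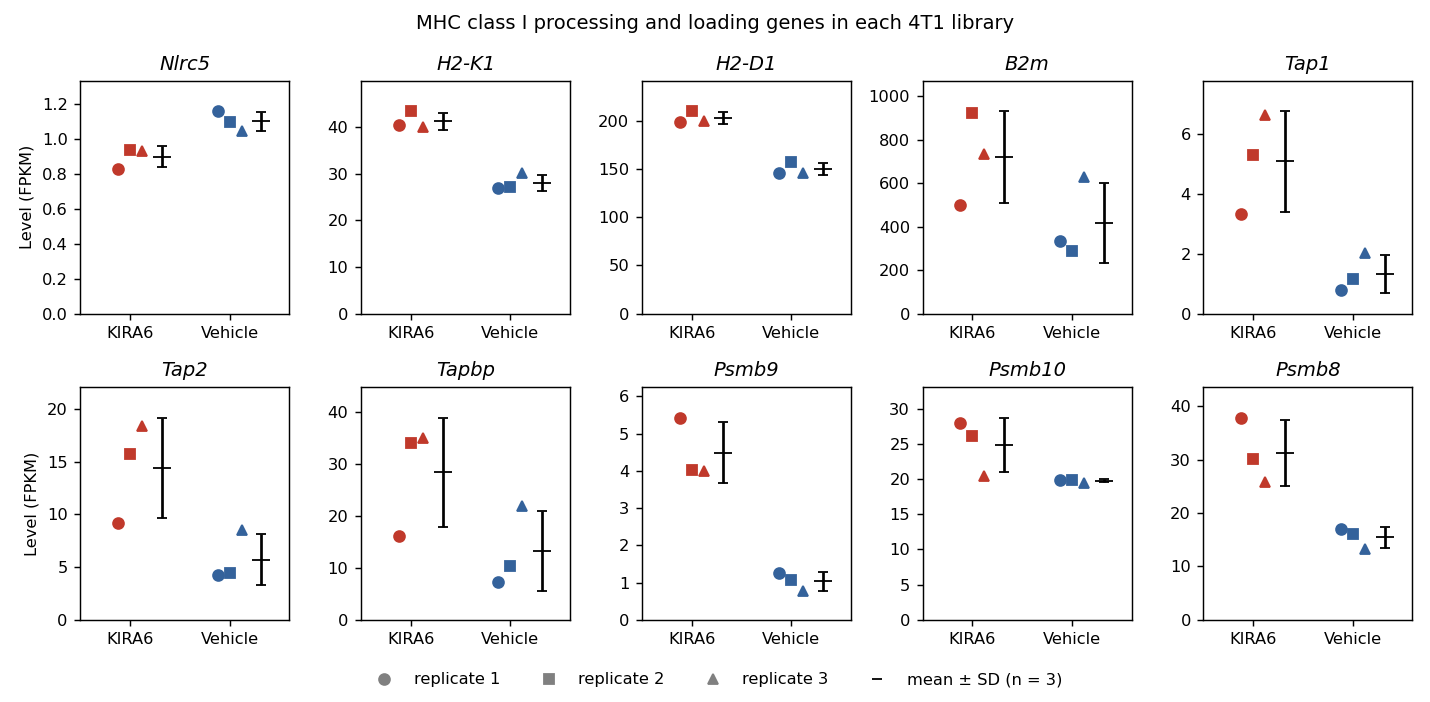
Level of each of the 10 genes in FPKM on a linear axis from 0, with KIRA6 libraries (red) left of vehicle libraries (blue), a marker shape per replicate number, and the mean with SD (n = 3 each) in black. The groups are apart for every gene except B2m and Tapbp, and Nlrc5 alone lies lower with KIRA6.

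The order of the levels ran from the light chain down to the regulator and the rarest immunoproteasome subunit. With KIRA6 the mean level was highest for B2m, at 719.1 FPKM, then H2-D1 at 202.7 FPKM and H2-K1 at 41.3 FPKM. With vehicle the same 3 genes led, at 417.2, 149.5 and 28.1 FPKM. Next came Psmb8, Tapbp and Psmb10 with KIRA6, whose libraries overlapped each other. With vehicle Tapbp overlapped Psmb10 and Psmb8, while Psmb10 lay above Psmb8 in every library. That order rests on exonic lengths of 1705 bases for Psmb10 and 3381 for Psmb8. In estimated fragments Psmb8 was the higher, with 1049, 894 and 836 against 619, 560 and 618 in the vehicle libraries. At the low end the libraries of Tap1 and Psmb9 overlapped with KIRA6, and those of Tap1, Psmb9 and Nlrc5 overlapped with vehicle.

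Nlrc5 encodes the coactivator of class I transcription, a relative of the class II coactivator CIITA, and it was not called in either direction. Nlrc5 (ENSMUSG00000074151, chromosome 8, 95160984 to 95253900 on GRCm39) had 0.83, 0.94 and 0.93 FPKM in the KIRA6 libraries and 1.16, 1.10 and 1.05 FPKM in the vehicle libraries. It was low in all 6 libraries and lower in each KIRA6 library than in any vehicle library. Its log2 fold change of −0.20 ± 0.14 (SE) was not called (limma adjusted p = 0.344), and the 95% interval ran from −0.52 to 0.13. Quantile normalization gave a call, with a log2 fold change of −0.55 (limma adjusted p = 0.0429). Over all 19 alternatives the adjusted p of Nlrc5 lay between 0.0429 and 0.565.

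The classical heavy chains rose by modest and even amounts. H2-K1 (ENSMUSG00000061232, chromosome 17, 34214991 to 34219321) had 40.5, 43.4 and 40.01 FPKM with KIRA6 and 27.02, 27.3 and 30.1 FPKM with vehicle. H2-D1 (ENSMUSG00000073411, chromosome 17, 35481706 to 35486475) had 198.8, 209.5 and 199.7 FPKM with KIRA6 and 146.0, 156.8 and 145.8 FPKM with vehicle. The groups did not overlap for either gene, and the replicates of a group lay close together. The log2 fold changes were 0.55 ± 0.12 for H2-K1 (SE, limma adjusted p = 0.0204) and 0.44 ± 0.12 for H2-D1 (SE, adjusted p = 0.0428). Relative to the median of all tested genes these differences were 0.39 and 0.28. Both calls ended with median-ratio scaling, which moved the median of all genes to −0.04 and gave log2 fold changes of 0.32 for H2-K1 (adjusted p = 0.121) and 0.21 for H2-D1 (adjusted p = 0.286). The H2-K1 call also ended when KIRA6 replicate 2 or 3 was left out (limma adjusted p = 0.0985 and 0.0536), or Vehicle replicate 1 or 2 (0.0841 and 0.102). The H2-D1 call ended when any 1 library was left out (limma adjusted p from 0.0545 to 0.163), with no filter (0.0605) and with rescaling to TPM (0.0511).

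Class I heavy chain genes share sequence and differ between mouse strains. In the GENCODE M21 transcripts, 9.63% of the 50-base stretches of H2-K1 and 12.8% of those of H2-D1 also occurred in other genes, among them H2-Q genes, and at 100 bases the shares were 0.957% and 3.59%. Sharing on either strand was not limited to the heavy chains. It was 23.2% for Tapbp, 11.9% for Psmb8 and 11.6% for Tap2 at 50 bases, and 14.8%, 8.05% and 4.99% at 100 bases. B2m and Psmb10 shared 0 stretches. BALB/c mice carry the H-2d haplotype, which includes the further heavy chain gene H2-L, while the reference carries the H-2b haplotype. How reads of the H-2d alleles were assigned was not tested, so the levels of both heavy chain genes are uncertain.

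B2m had the highest mean FPKM of the members and was the most uneven of the pair that forms a class I molecule. B2m (ENSMUSG00000060802, chromosome 2, 121978167 to 121983564) had 500.4, 923.5 and 733.4 FPKM with KIRA6 and 333.5, 289.6 and 628.5 FPKM with vehicle. Vehicle replicate 3 lay above KIRA6 replicate 1, so the groups overlapped. The log2 fold change of 0.83 ± 0.35 (SE) was not called (limma adjusted p = 0.138), and its 95% interval ran from −0.01 to 1.66. Without Vehicle replicate 3 it was 1.17 and was called (adjusted p = 0.0224), and without KIRA6 replicate 1 it was 1.07 and was not called (adjusted p = 0.0858). Without both it was 1.404 (limma adjusted p = 0.000208), in a fit chosen after seeing the data. These are the highest vehicle and the lowest KIRA6 library for B2m. Leaving them out had to raise the value, so that p-value lends no support. The log2 ratio of B2m to the sum of H2-K1 and H2-D1 averaged 1.51 ± 0.41 with KIRA6 and 1.14 ± 0.62 with vehicle (SD, n = 3 each), a difference of 0.37 that was within the spread (exact permutation test, two-sided, p = 0.4).

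The peptide transporter genes showed some of the largest differences among the members. TAP1 and TAP2 each form part of the channel that carries peptides into the ER. Tap1 (ENSMUSG00000037321, chromosome 17, 34406527 to 34416199) had 3.31, 5.27 and 6.63 FPKM with KIRA6 and 0.78, 1.16 and 2.03 FPKM with vehicle. Tap2 (ENSMUSG00000024339, chromosome 17, 34422501 to 34435295) had 9.18, 15.7 and 18.4 FPKM with KIRA6 and 4.20, 4.44 and 8.48 FPKM with vehicle. The groups did not overlap for either gene, but KIRA6 replicate 1 was the lowest of its group and Vehicle replicate 3 the highest of its group for both. The log2 fold changes were 1.62 ± 0.33 for Tap1 (SE, limma adjusted p = 0.0148) and 1.28 ± 0.34 for Tap2 (SE, adjusted p = 0.0382). In ratios of mean FPKM these were 3.83-fold and 2.53-fold higher with KIRA6. The Tap1 call ended when KIRA6 replicate 2 or 3 was left out (limma adjusted p = 0.0698 and 0.0601), or Vehicle replicate 2 (0.0589). The Tap2 call ended when KIRA6 replicate 2 or 3 was left out (limma adjusted p = 0.138 and 0.129), or Vehicle replicate 1 or 2 (0.109 and 0.125). It also ended under median-ratio scaling (0.062), under TPM (0.0716) and with no filter (0.076).

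Tapasin bridges TAP and the empty class I molecule and edits its peptide. Tapbp (ENSMUSG00000024308, chromosome 17, 34134873 to 34148266) had 16.2, 33.9 and 35.0 FPKM with KIRA6 and 7.36, 10.4 and 21.98 FPKM with vehicle. As for B2m, Vehicle replicate 3 lay above KIRA6 replicate 1. The log2 fold change of 1.13 ± 0.46 (SE) was not called (limma adjusted p = 0.122). With replicate number as a block it was called (limma adjusted p = 0.00397). Without Vehicle replicate 3 it was 1.56 and was called (adjusted p = 0.0271), and without that library and KIRA6 replicate 1 it was 1.91 (limma adjusted p = 7.713e-05). The last fit was chosen after seeing the data and leaves out the highest vehicle and the lowest KIRA6 library. It had to raise the value, so its p-value lends no support. In the deposited annotation Tapbp shares 3422 bases on the same strand with Zbtb22, which had 23.7, 19.7 and 18.9 FPKM with KIRA6 and 13.7, 14.8 and 16.1 FPKM with vehicle. The sources used here do not give how shared reads were assigned.

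The immunoproteasome genes differed in how far they moved. Psmb9 (ENSMUSG00000096727, chromosome 17, 34400961 to 34406738), the inducible form of subunit β1, had 5.43, 4.03 and 3.99 FPKM with KIRA6 and 1.25, 1.08 and 0.76 FPKM with vehicle. Psmb8 (ENSMUSG00000024338, chromosome 17, 34416695 to 34420428), the inducible form of β5, had 37.9, 30.1 and 25.9 FPKM with KIRA6 and 17.04, 16.03 and 13.3 FPKM with vehicle. Both rose, and every KIRA6 library lay above every vehicle library. Their log2 fold changes were 1.70 ± 0.20 for Psmb9 (SE, limma adjusted p = 0.00229) and 0.98 ± 0.18 for Psmb8 (SE, adjusted p = 0.0115). The Psmb9 call held in all 19 alternatives. Its log2 fold change was the largest of the 10 members as reported, but Tap1 was larger with array weights, without KIRA6 replicate 1, without Vehicle replicate 3, and without both of these libraries. The Psmb8 call ended in 1 of 19, without KIRA6 replicate 2 (limma adjusted p = 0.0529). Psmb9 is low, and its values rest on 52 to 83 estimated fragments per vehicle library.

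Psmb10 (ENSMUSG00000031897, chromosome 8, 106662367 to 106665076), the inducible form of β2, lies outside the MHC region. It had 27.9, 26.2 and 20.5 FPKM with KIRA6 and 19.9, 19.9 and 19.5 FPKM with vehicle. The vehicle libraries were nearly level, and KIRA6 replicate 3 lay just above them. Its log2 fold change of 0.31 ± 0.15 (SE) was not called (limma adjusted p = 0.187), and 0.15 of it remained after subtracting the median of all tested genes. The 95% interval of the log2 fold change ran from −0.05 to 0.67. Median-ratio scaling gave 0.088 (limma adjusted p = 0.753), while Psmb10 was called with array weights (0.0111) and with the leading residual component as covariate (0.0271). That covariate was chosen after seeing the data and is taken from the same spread that it removes.

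The constitutive subunits that the immunoproteasome subunits replace had higher mean FPKM than their partners and were not called. Psmb6, the constitutive β1, averaged 91.3 ± 24.4 FPKM with KIRA6 and 97.6 ± 15.4 FPKM with vehicle (SD, n = 3 each). Psmb5, the constitutive β5, averaged 55.3 ± 9.46 FPKM with KIRA6 and 60.6 ± 5.70 FPKM with vehicle. Psmb7, the constitutive β2, averaged 56.1 ± 14.2 FPKM with KIRA6 and 67.1 ± 16.96 FPKM with vehicle. Their log2 fold changes were −0.12, −0.14 and −0.25 (limma adjusted p = 0.757, 0.603 and 0.539). The signs of the Psmb6 and Psmb5 values turned without KIRA6 replicate 3, and that of Psmb6 also with quantile normalization. Psmb6 and Psmb7 were called lower with array weights (limma adjusted p = 0.0333 and 0.00767) and with both outlying libraries left out (0.00987 and 0.00338). The outlying libraries are the highest KIRA6 and the lowest vehicle library for both genes. Leaving them out, a choice made after seeing the data, had to lower the values.

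Set against their constitutive partners, Psmb9 and Psmb8 took a larger part of the summed FPKM with KIRA6. The size of a share rests on the exonic lengths used, such as 3381 bases for Psmb8 and 899 for Psmb5. Psmb9 made up 4.37%, 4.66% and 5.21% of the summed FPKM of Psmb9 and Psmb6 in the KIRA6 libraries and 1.13%, 1.04% and 0.938% in the vehicle libraries. Psmb8 made up 38.2%, 33.4% and 36.8% of Psmb8 and Psmb5 with KIRA6 and 20.5%, 20.9% and 19.5% with vehicle. For both pairs the groups were well apart, and the vehicle libraries lay close together. The share of Psmb10 in Psmb10 and Psmb7 was 28.1%, 32.7% and 32.1% with KIRA6 and 20.1%, 21.2% and 29.0% with vehicle, which overlapped. The log2 ratios differed by 1.82 for Psmb9 to Psmb6 and by 1.12 for Psmb8 to Psmb5 (exact permutation test, two-sided, p = 0.1 for each, the smallest that 3 against 3 libraries can give, and adjusted p = 0.2 over 4 ratios). For Psmb10 to Psmb7 the difference was 0.56 (exact permutation p = 0.2, adjusted p = 0.267).

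**Figure D2:**
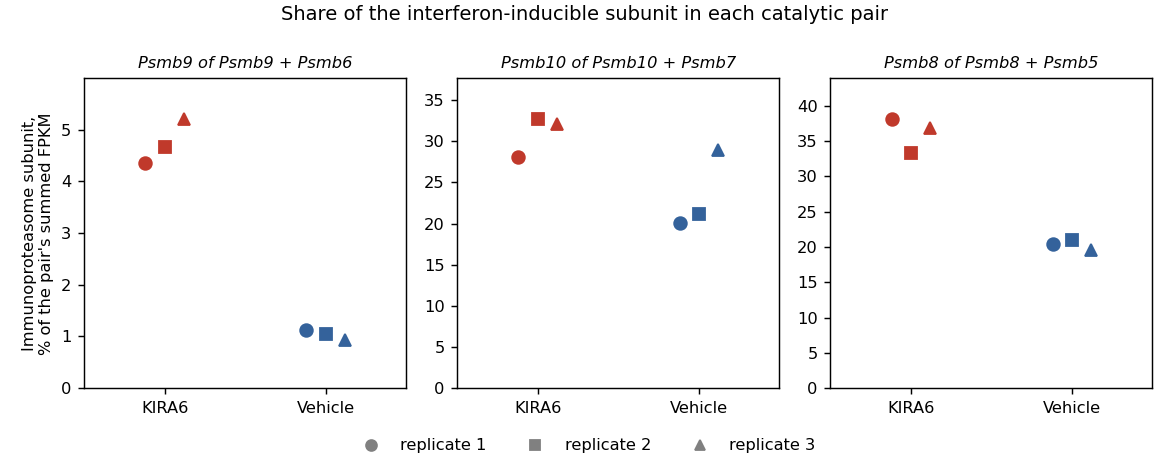
Share of the immunoproteasome subunit in the summed FPKM of each catalytic pair, in percent on axes from 0, with KIRA6 libraries (red) left of vehicle libraries (blue) and a marker shape per replicate number. Psmb9 stays between 4.37% and 5.21% with KIRA6 and at most 1.13% with vehicle, while the groups overlap for Psmb10.

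Psmb9, Tap1, Psmb8 and Tap2 sit side by side in the MHC class II region of chromosome 17. The 4 genes span 34335 bases, with 495 bases between Tap1 and Psmb8 and 2072 between Psmb8 and Tap2, and all 4 rose. Psmb9 and Tap1 run in opposite directions, share a promoter region and overlap by 212 bases in the deposited annotation. Of the 50-base stretches of Psmb9, 4.19% also occurred in Tap1 transcripts on either strand. Without the strand setting of the counting, reads of that overlap cannot be told apart.

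The members did not vary together from library to library. The log2 values of B2m, Tap1, Tap2 and Tapbp were higher in Vehicle replicate 3 than in the mean of the other vehicle libraries by 1.02, 0.80, 0.90 and 1.28. In KIRA6 replicate 1 the same 4 genes were below the mean of the other KIRA6 libraries, with differences of −0.72, −0.75, −0.85 and −1.07. Psmb9 and Psmb8 went the other way, with −0.40 and −0.30 in Vehicle replicate 3 and 0.39 and 0.44 in KIRA6 replicate 1. H2-K1, H2-D1 and Nlrc5 stayed within 0.15 of the other libraries in both. The within-group SD of log2 values was 0.48 to 0.70 for the first 4 genes, 0.05 to 0.07 for H2-K1, H2-D1 and Nlrc5, and 0.25 for the median tested gene. The part of these 2 libraries in the group differences was not tested beyond leaving them out, which made the log2 fold changes of B2m, Tap1, Tap2 and Tapbp larger and those of Psmb9 and Psmb8 smaller.

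**Figure D3:**
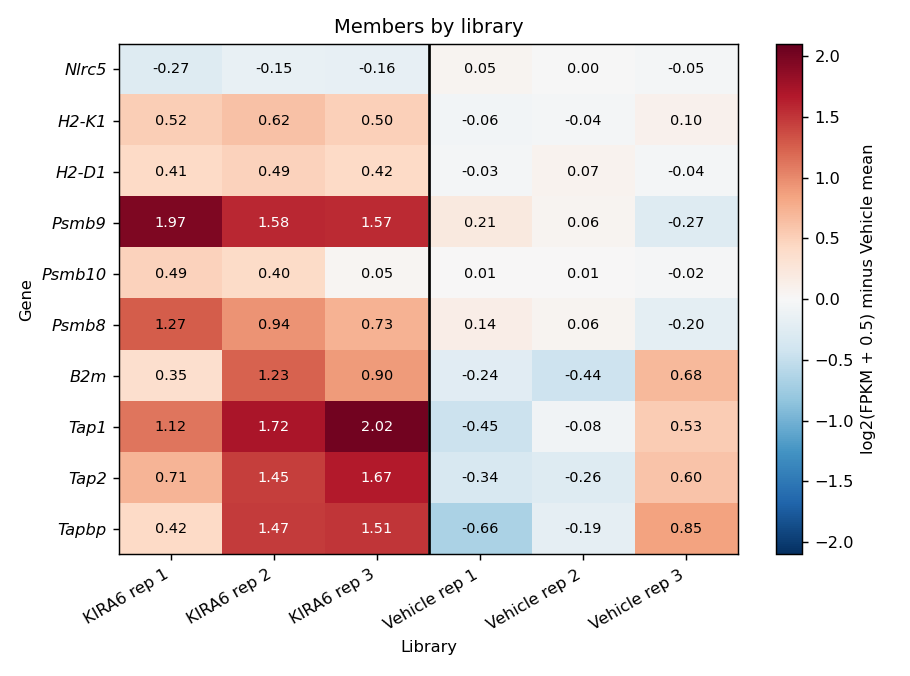
Value of each gene in each library as log2(FPKM + 0.5) minus the vehicle mean of that gene, with KIRA6 libraries left of the black line and vehicle libraries right of it. B2m, Tap1, Tap2 and Tapbp (lower rows) share a high Vehicle replicate 3 and a low KIRA6 replicate 1, while H2-K1 and H2-D1 are even within each group.

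By root mean square difference of log2 profiles over the 6 libraries, the genes most like the mean profile of the members were Itm2b (0.0342), Cbr2 (0.0519), Mvp (0.053), Septin5 (0.0586) and Yipf3 (0.0602). Itm2b, a membrane protein gene, averaged 82.6 ± 10.4 FPKM with KIRA6 and 45.3 ± 6.39 FPKM with vehicle (SD, n = 3 each). The members themselves lay farther from that mean, from 0.244 for H2-K1 to 0.764 for Nlrc5, so the mean profile describes no single member closely.

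Other class I genes rose beside the classical heavy chains. Of 21 listed class I and class I-like genes 10 were tested, 7 rose and 0 fell, where 15.6% and 7.98% of all tested genes did. Their median log2 fold change was 0.90. H2-T23, which encodes the Qa-1 molecule read by natural killer receptors, averaged 12.5 ± 0.797 FPKM with KIRA6 and 3.88 ± 0.781 FPKM with vehicle (limma adjusted p = 0.00174). Mr1, which shows vitamin B metabolites to MAIT cells, averaged 1.58 ± 0.122 FPKM with KIRA6 and 0.450 ± 0.0721 FPKM with vehicle (limma adjusted p = 0.00318). The vehicle mean of Mr1 was below the filter of 0.5 FPKM, which the gene passed through the KIRA6 libraries. The others were H2-Q4, H2-T22, H2-T10, Hfe, which acts in iron balance, and Cd1d1, which shows lipids to NKT cells. H2-Q6, H2-Q7 and H2-M3 had log2 fold changes of 0.25, 0.17 and −0.09 and were not called. The count of called genes was 3 to 8 with a single library left out and 5 with median-ratio scaling. H2-Q genes and H2-T23 share stretches with H2-K1 or H2-D1, and how reads of H2-Q and H2-T genes were assigned was not tested. H2-Q4 had a log2 fold change of 1.16 ± 0.14 (SE, limma adjusted p = 0.00243).

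The general ER chaperones of the loading complex were not called. Calreticulin (Calr) averaged 434.7 ± 45.5 FPKM with KIRA6 and 397.1 ± 51.6 FPKM with vehicle (SD, n = 3 each). Calnexin (Canx) averaged 107.6 ± 17.9 FPKM with KIRA6 and 120.4 ± 8.01 FPKM with vehicle. ERp57 (Pdia3) averaged 176.8 ± 13.9 FPKM with KIRA6 and 174.8 ± 15.7 FPKM with vehicle. Their log2 fold changes of 0.13, −0.17 and 0.02, of which that of Calr turned with median-ratio scaling and that of Pdia3 in 6 alternatives, had limma adjusted p = 0.597, 0.484 and 0.951, and the 95% intervals reached at most 0.51 above 0 and 0.55 below it. Erap1, which trims peptides in the ER, had a log2 fold change of 0.36 (adjusted p = 0.226). Of 17 tested loading and trimming genes 1 rose and 2 fell, where 15.6% and 7.98% of all tested genes did. Their median log2 fold change was 0.02. The gene that rose was Tapbpl, which encodes the tapasin relative TAPBPR, at 11.7 ± 1.35 FPKM with KIRA6 and 2.76 ± 0.210 FPKM with vehicle (log2 fold change 1.902 ± 0.15, SE, limma adjusted p = 0.000768). The genes that fell were the cytosolic peptidases Thop1 and Lap3, with log2 fold changes of −0.87 and −0.94 (limma adjusted p = 0.0122 and 0.022). The Thop1 call ended when KIRA6 replicate 2 (0.0512) or Vehicle replicate 2 (0.0588) was left out. The Lap3 call ended when KIRA6 replicate 2 or 3 (0.0902 and 0.0817) or Vehicle replicate 1 or 2 (0.0747 and 0.0897) was left out.

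Among 11 tested proteasome activator and assembly genes 1 rose and 2 fell, where 15.6% and 7.98% of all tested genes did. Their median log2 fold change was −0.26. Psme1, a subunit of the interferon-inducible activator PA28αβ, averaged 52.7 ± 1.72 FPKM with KIRA6 and 38.1 ± 2.004 FPKM with vehicle (limma adjusted p = 0.0329). The Psme1 call ended under median-ratio scaling (0.227), under TPM (0.0607), with no filter (0.0536), and when any library other than Vehicle replicate 3 was left out (0.0713 to 0.149). Its partner Psme2, which has the near-identical copy Psme2b, had a log2 fold change of 0.32 (limma adjusted p = 0.476). The Psme2 value was 0.093 with median-ratio scaling and 0.037 with array weights, 0.098 and 0.508 without KIRA6 replicate 1 or 3, and 0.065 without Vehicle replicate 3. It was called with the leading residual component as covariate (limma adjusted p = 0.00667), which was chosen after seeing the data. Psme3, the nuclear activator PA28γ, fell to 55.0 ± 3.53 FPKM with KIRA6, against 108.2 ± 6.58 FPKM with vehicle (limma adjusted p = 0.00338). The assembly chaperone gene Psmg3 also fell, with a log2 fold change of −0.84 (adjusted p = 0.0216). The Psmg3 call ended when KIRA6 replicate 2 or 3 (0.0898 and 0.0584) or Vehicle replicate 1 or 2 (0.0663 and 0.0902) was left out.

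Transcription factors known to act on class I genes were among those that rose, while Nlrc5 was not. Of 34 tested regulators 10 rose and 1 fell, where 15.6% and 7.98% of all tested genes did. Their median log2 fold change was 0.27. Irf1, the factor that binds the interferon response element of class I promoters, averaged 20.7 ± 1.56 FPKM with KIRA6 and 8.17 ± 0.280 FPKM with vehicle, a log2 fold change of 1.29 ± 0.12 (SE, limma adjusted p = 0.00138). Irf7 averaged 1.47 ± 0.161 FPKM with KIRA6 and 0.110 ± 0.0436 FPKM with vehicle (limma adjusted p = 0.00117). It passed the filter through the KIRA6 libraries and was not tested with a filter of 1 FPKM. The kinase gene Tyk2 averaged 5.30 ± 0.473 FPKM with KIRA6 and 1.45 ± 0.261 FPKM with vehicle (limma adjusted p = 0.00165). Rfx5, a subunit of the X box factor RFX, had a log2 fold change of 0.67 (limma adjusted p = 0.0273). The Rfx5 call ended under median-ratio scaling (0.079), with quantile normalization (0.182), and when any library other than Vehicle replicate 3 was left out (0.0553 to 0.094). Irf9, Stat2, Jak2, Ifngr2 and Rfxank were also among the genes that rose. The gene that fell was Irf8, which averaged 0.0833 ± 0.0208 FPKM with KIRA6 and 1.08 ± 0.365 FPKM with vehicle and was named after its values were seen. It passed the filter through the vehicle libraries, and the count of regulators called lower was 0 with a filter of 1 FPKM and without Vehicle replicate 1 or 2.

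The NF-κB subunits Rela and Nfkb1 and the factor Irf2 had log2 fold changes of 0.59, 0.20 and 0.25 and were not called (limma adjusted p = 0.337, 0.681 and 0.777). The 95% intervals ran from −0.37 to 1.56 for Rela, from −0.53 to 0.94 for Nfkb1 and from −1.01 to 1.497 for Irf2. All 3 were called higher with array weights, with log2 fold changes of 1.165, 0.504 and 0.946 (limma adjusted p = 0.00127, 0.0115 and 0.00979). With both outlying libraries left out they were 1.285, 0.701 and 1.14 (limma adjusted p = 0.000169, 0.00512 and 0.0019), and Rela was also called with the leading residual component as covariate (0.000807). Both fits were chosen after seeing the data. For all 3 genes the outlying libraries are the lowest KIRA6 and the highest vehicle library. Leaving them out had to raise the values, so those p-values lend no support. With a single library left out Rela ran from 0.332 without Vehicle replicate 1 to 0.981 without Vehicle replicate 3, Nfkb1 from 0.02 to 0.506 without the same libraries, and none of the 3 was called. The interferon gene Ifng was at 0 in all 6 libraries, and Ifnb1 had 0.06 FPKM in KIRA6 replicate 1 and 0 in the others. No other interferon gene was in the list, so whether the cells made interferon was not tested. The count of regulators called higher was 5 to 10 with a single library left out, 7 with median-ratio scaling and 20 with both outlying libraries left out.

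**Figure D4:**
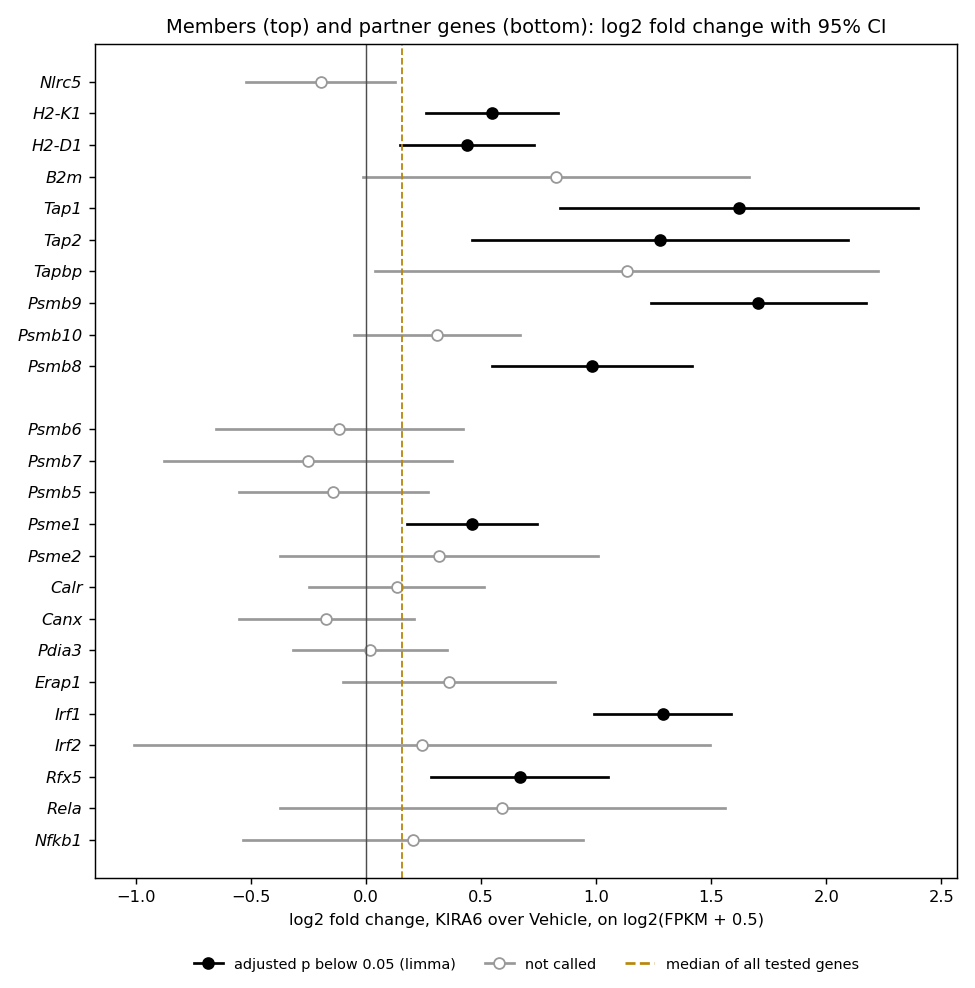
Log2 fold change of KIRA6 over vehicle on log2(FPKM + 0.5) with its 95% confidence interval from limma, for the members (top) and for partner genes (bottom), with filled black points for adjusted p below 0.05 and a dashed line at the median of all tested genes, 0.16. Psmb9 (1.70) and Tap1 (1.62) lie farthest right, the constitutive subunits Psmb6, Psmb7 and Psmb5 lie left of 0, and Nlrc5 is not called at −0.20.

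Of 11 tested genes for the removal of class I molecules from the ER or the surface 1 rose and 1 fell. Of all tested genes 15.6% rose and 7.98% fell. The median log2 fold change of the 11 was 0.47. Tmem127, reported in human cells to act with SUSD6 and WWP2 in the removal of class I molecules, had a log2 fold change of 0.48 (limma adjusted p = 0.0418), and Ube2j2, an ER ubiquitin-conjugating enzyme, had −0.70 (adjusted p = 0.0148). The Tmem127 call ended under median-ratio scaling (0.209), quantile normalization (0.0673) and TPM (0.105), with no filter (0.0701), and when any library other than Vehicle replicate 3 was left out (0.0921 to 0.15). The Ube2j2 call ended when KIRA6 replicate 2 or 3 (0.0691 and 0.0546) or Vehicle replicate 1 or 2 (0.0602 and 0.0778) was left out. Of 10 MHC class II genes only Cd74 and H2-DMa passed the filter, neither was called, and 3 were at 0 in all libraries.

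**Figure D5:**
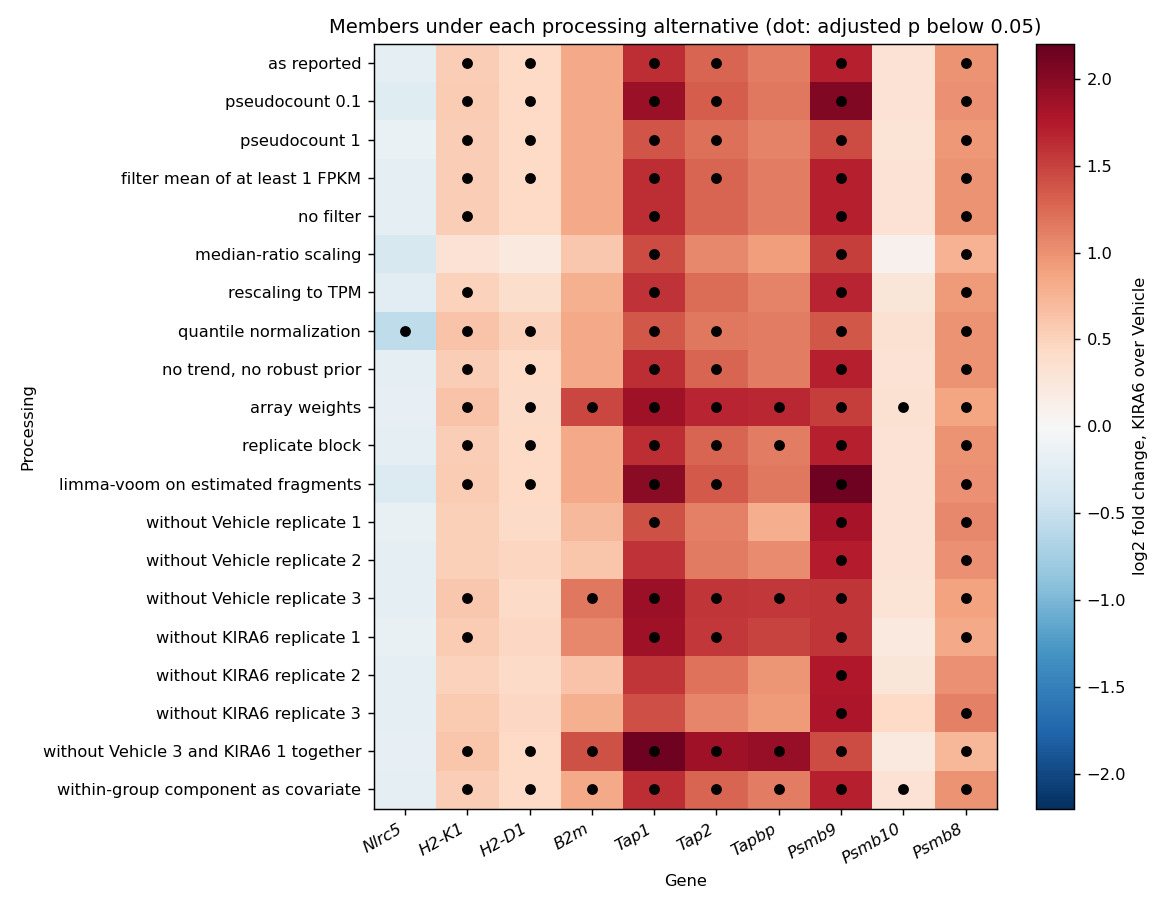
Log2 fold change of each member (columns, color scale) under the reported analysis and 19 alternatives (rows), with a black dot where the adjusted p was below 0.05. Psmb9 has a dot in every row, the sign of every member is the same in every row, and only Psmb9 keeps its dot without KIRA6 replicate 2.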

How the data were processed

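For the 6 libraries the authors deposited FPKM per gene with 2 decimals, exonic lengths and GRCm39 coordinates. Per the submitters' processing notes the tools were DESeq2 1.34.0, HTSeq 0.6.1, HISAT2 2.2.1 and cutadapt 1.9.1, without settings. Depth was estimated from the steps between low FPKM values, which were whole multiples of a fragment within a tolerance of 0.1.

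Log2(FPKM + 0.5) was compared by limma 3.58.1 (R 4.3.3; group as the sole term; trended, robust prior; two-sided), and p-values were adjusted by Benjamini-Hochberg over genes whose mean reached 0.5 FPKM. This scale understates changes of low genes. The labels do not name separate cultures, so a p-value covers the spread between these libraries, which may be technical.

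The members and lists were chosen with earlier results of these data known. Genes named are all members, partners set in the design, up to 3 called genes of smallest p per list and the 5 nearest profiles. Others that complete a count, and the non-called H2-Q6, H2-Q7 and H2-M3, were chosen after their values were seen. Alternatives changed pseudocount, filter, scaling, prior, library weights and test, added a replicate block or left libraries out. Leaving out KIRA6 replicate 1 with Vehicle replicate 3, and a residual component as covariate, were added after seeing the data. The covariate is taken from the same spread that it removes, so p-values with it lend no support. Some results of the gene lists are not reported here.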

Additional observations from a re-analysis of the deposited data

How the results depend on the processing

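No member changed sign in any of 19 alternatives. The count of genes called over all 11778 was 2783. It was 7553 with array weights, and, in alternatives chosen after seeing the data, 6592 with KIRA6 replicate 1 and Vehicle replicate 3 both left out and 6751 with the leading residual component as covariate. With 1 library left out the count ran from 1174 to 3423. The count of members called higher, 6, was 3 with median-ratio scaling and 1 to 7 with 1 library left out, and the count called lower, 0 by limma with 0 at an unadjusted p under 0.05, was 1 with quantile normalization (Nlrc5). The cause of these differences was not tested. The share of higher calls was 66.2%, against 44% with median-ratio scaling and 48.9% with quantile normalization. The replicate block called 4423 genes and 7 members higher, Tapbp among them. Same-numbered libraries deviated together for numbers 1 and 3 (correlations 0.762 and 0.738) and apart for number 2 (−0.469). The deviations within a group sum to 0, so these correlations are not independent and cannot decide whether the numbers pair libraries. The labels do not give a pairing, and the block was kept as an alternative. Log2 fold changes of partner genes near 0 changed sign. With 1 library left out they ran from −0.224 to 0.008 for Psmb5, −0.321 to 0.034 for Psmb6, −0.06 to 0.078 for Pdia3 and −0.076 to 0.752 for Irf2. Quantile normalization gave 0.005 for Psmb6 and −0.047 for Irf2. Median-ratio scaling gave −0.094 for Calr, −0.21 for Pdia3 and −0.011 for Nfkb1. Pdia3 was at −0.028 with TPM and −0.131 with array weights. With both outlying libraries left out Psme2 was at −0.153 and Pdia3 at −0.069. The signs of the 4 subunit ratios were the same with both other pseudocounts and with each library left out. The lowest estimated fragment numbers of the members were 52 for Psmb9, 78 for Tap1 and 145 for Nlrc5, which limits their precision.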
